A study of Mus musculus with 25 samples.

Results

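Sperm carries a population of RNAs, and the 9 genes described here encode proteins that bind, take up or oxidise retinoids, the vitamin A compounds. They are Rbp2, Rbp7, Crabp1, Crabp2, Aldh1a1, Aldh1a2, Aldh1a3, Stra6 and Dhrs9, which were 9 of the 24358 genes in the table. The set was selected on measured values, because Rbp2 was chosen by its position among the largest rises with DEHP in C57BL/6J, and the other 8 genes were added as retinoid handling genes. The ratio of Rbp2 between both first-generation C57BL/6J conditions is therefore a description of how the set was chosen. All 9 genes were found, and Cuffdiff gave each an estimate in every condition.

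The study used all-RNA-seq, in which RNA ends are treated so that RNAs of every end type enter the library, on sperm that swam out of incised cauda epididymides of males aged 14 weeks. DEHP, di(2-ethylhexyl) phthalate, is a plasticiser, and it was given by mouth to pregnant females at 300 mg/kg/day from embryonic day 9 to 19, while control females received corn oil over the same days. C57.CTL.F1 denotes first-generation C57BL/6J males exposed in utero to corn oil, and C57.D300.F1 those exposed to DEHP. C57.D300.F2 denotes second-generation C57BL/6J males, obtained by crossing exposed first-generation males with unexposed females. FVB.CTL.F1 and FVB.D300.F1 are the vehicle and DEHP conditions of the first generation in the inbred strain FVB/N. Both strains are inbred, and the labels name no transgene or deletion. Each of the 5 conditions comprised 5 libraries, 25 in all, and the deposited table gives 1 pooled estimated count per gene and condition, so no spread over replicates and no p-value can be given. The count columns summed to between 6921688 and 8602900. Below, 5 values in a row follow the order C57BL/6J with vehicle, C57BL/6J with DEHP, second generation, FVB/N with vehicle and FVB/N with DEHP. A ratio with C57.CTL.F1 or C57.D300.F1 on one side and any other condition on the other side cannot be told apart from a difference between library sets, because the 10 libraries of both former conditions were labelled as re-analysed and the other 15 were new. The table also holds no second-generation vehicle condition.

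Retinol is carried in plasma by a binding protein, enters cells through a membrane receptor, and is held inside cells by small cellular binding proteins. It is oxidised reversibly to retinaldehyde by alcohol and short-chain dehydrogenases, and irreversibly to retinoic acid by the ALDH1A enzymes. Retinoic acid then acts through nuclear receptors, and in the testis it drives the entry of germ cells into differentiation and meiosis. RBP2 is the cellular retinol-binding protein best known from the absorptive cells of the small intestine.

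The promoter of Rbp2 is shown because the set was chosen by this gene, and because retinoid receptors bind repeats of a short half-site. The sequence is from RefSeq on GRCm38.p6, on the plus strand at chr9:98490287-98490536, and ends at the base before the RefSeq start of the gene. Capitals mark the half-site AGGTCA, which was found on the minus strand and so reads as its reverse complement, from base -58 to base -53 relative to the start.

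Rbp2 promoter: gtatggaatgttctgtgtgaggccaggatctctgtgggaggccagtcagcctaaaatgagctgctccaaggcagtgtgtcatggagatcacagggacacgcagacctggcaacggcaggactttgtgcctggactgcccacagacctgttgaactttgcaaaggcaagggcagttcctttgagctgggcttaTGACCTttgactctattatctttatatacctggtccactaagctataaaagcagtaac

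Promoters of 7 of the 9 genes were matched in the RefSeq table, those of Crabp2 and Aldh1a3 being named only. Both strands were searched for AGGTCA and for direct repeats of it spaced by 1, 2 or 5 bases. Half-sites were found in the 250 bases before the start for 2 of the 7 genes, Rbp2 and Dhrs9, where the Dhrs9 match lay on the minus strand from base -88 to base -83. The share over all 27025 genes with a promoter was 15.8%. No promoter of the 7 genes held a direct repeat, and over all genes the shares were 0.0407%, 0.0074% and 0.0111% for spacings of 1, 2 and 5 bases. Only exact repeats in this window were searched, and they are rare over all genes. Their absence therefore does not show that a gene lacks a site for these receptors. These matches are descriptions of letters in a window and were not tested for binding.

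Rbp2 lies on the plus strand of chromosome 9 in the GENCODE M21 annotation of GRCm38, at chr9:98486115-98509781, and is a protein-coding gene. Its estimated count was 154 with vehicle and 2540 with DEHP in first-generation C57BL/6J, 242 in the second generation, and 1016 with vehicle and 2911 with DEHP in FVB/N. Both first-generation DEHP conditions were thus the highest, vehicle in C57BL/6J was the lowest, and the second generation lay close to that vehicle value. By count, Rbp2 exceeded 66.0% of genes in C57BL/6J with vehicle and 98.5% with DEHP. The remaining shares were 77.3% in the second generation, and 94.7% with vehicle and 98.7% with DEHP in FVB/N. Sperm RNA of unexposed FVB/N males therefore already placed Rbp2 among the abundant transcripts. GENCODE lists 1 gene that overlaps Rbp2 on the same strand, Gm37113, which is not in the table.

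The error of these counts was given only as the variance under the Cuffdiff model, whose square root is called the model SD here and is not a spread between libraries. For Rbp2 the model SD was 39.8 with vehicle and 2191 with DEHP in first-generation C57BL/6J, and 350 with vehicle and 1619 with DEHP in FVB/N. Relative to the count, it was 0.259, 0.863, 0.235, 0.345 and 0.556 in the 5 conditions. In C57.D300.F1 and FVB.D300.F1 these relative SDs were 2.89 and 1.79 times the median of 200 genes of similar count, and above those of 97% and 91% of them. In FVB.CTL.F1 the factor was 1.37, above 96% of such genes, while it was 1.03 in C57BL/6J with vehicle and 0.994 in the second generation. The model variance of Rbp2 was thus raised in the same 3 conditions in which its count was high. Whether a share of the 5 libraries carried most of its reads was not tested, because single libraries were not analysed here.

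The members were then placed side by side in the plot of counts by condition.

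**Figure D1:**
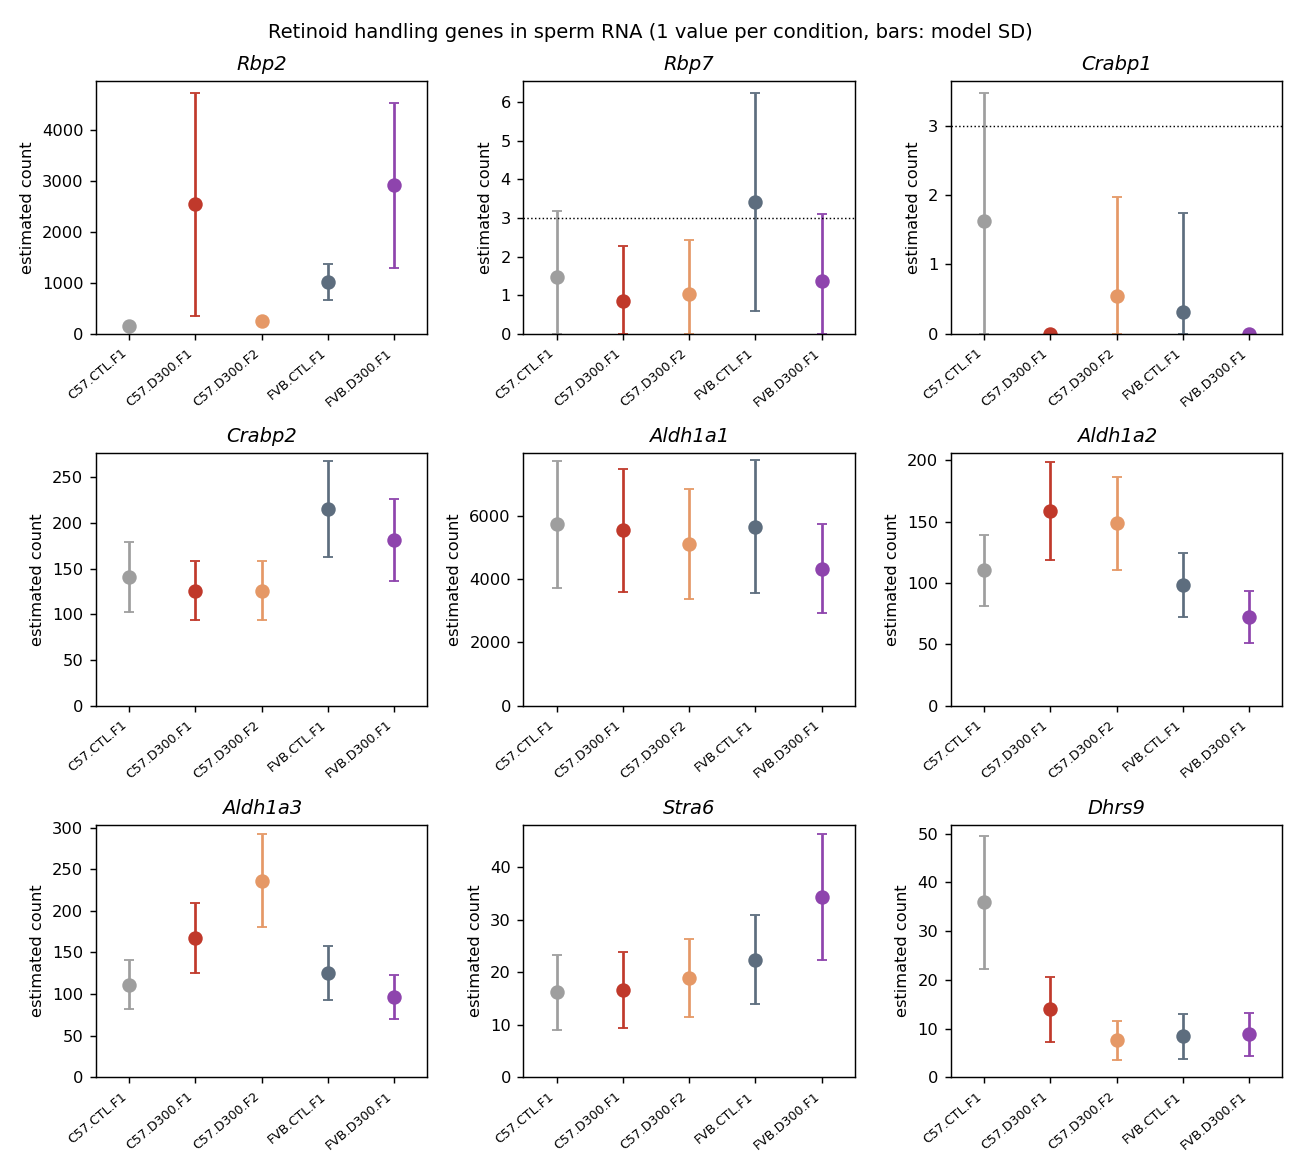
Estimated count (y axis, linear from 0, scaled separately for each gene) of the 9 genes in the 5 conditions (x axis). Points are the pooled value of 5 libraries, bars are ± 1 model SD cut off at 0, and dotted lines in the Rbp7 and Crabp1 panels mark the limit of 3 counts. Rbp2 ranges from 154 to 2911, whereas Aldh1a1 stays between 4332 and 5735.

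With DEHP in C57BL/6J, the count of Rbp2 was 16.5-fold higher than with vehicle, a log2 ratio of 4.04 on the scale of count plus 1. The difference of 2386 counts exceeded its model SD of 2191. In such bulk RNA, a change in the number of cells of a type and a change in RNA per cell cannot be told apart. Among genes with at least 100 counts, the values around the choice of this gene were as follows. Gm2083 went from 0 to 159 counts with a log2 ratio of 7.32. Below Rbp2, Jchain, which joins immunoglobulin chains, went from 25.6 to 251 counts (3.25), and Gm12830 from 236 to 836 counts (1.82). Of the 16825 genes tested, that is with at least 10 counts in 1 of both conditions, 0.0357% were higher by at least 2 log2 units and 0.256% were lower. Among the 7 retinoid handling genes tested, Rbp2 was the 1 gene that was higher, and nothing is read from that count because it chose the set.

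DEHP in FVB/N was not used to choose the genes, and it shares no condition with the C57BL/6J comparison. There Rbp2 went from 1016 to 2911 counts, which was 2.87-fold with a log2 ratio of 1.52. The difference of 1896 counts exceeded its model SD of 1656, and 159 of 16471 genes had a higher ratio. This value lay under 2 log2 units, a size passed upward by 0.662% and downward by 0.0182% of genes, and 0 of the 6 retinoid handling genes tested passed it. At 1 log2 unit, 2.77% of all genes and 1 of the 6 genes, Rbp2, were past the threshold. Over the alternative scalings and pseudocounts, the log2 ratio of Rbp2 stayed between 1.39 and 1.52. The floor of 3 counts could not change it, because Rbp2 lay above 3 counts in every condition. Lists of markers of other tissues moved in the same pair of conditions, in both directions. Of 10 markers of the epididymal epithelium, 8 had an estimate in all conditions, and their summed count was 166 with vehicle and 37517 with DEHP in FVB/N, but 263 and 256 in first-generation C57BL/6J. Crisp1, another epididymal marker, was missing in 3 conditions through failed estimates, among them FVB/N with vehicle and C57BL/6J with DEHP, and was left out of these sums. The summed count of 5 blood markers was 962 with vehicle and 4006 with DEHP in FVB/N, and 2075 and 1930 in first-generation C57BL/6J. Both sums were thus higher alongside Rbp2 in FVB/N and nearly level in C57BL/6J. Crisp1, left out there, had 108274 counts in C57.CTL.F1 and no estimate in C57.D300.F1. Within the level blood sum, Hbb-b1 went from 487 to 178 counts and Ptprc from 306 to 490 in that pair. Seminal vesicle markers summed to 226599 and 75.6 in the same pair, and liver markers to 176938 and 169548. In FVB/N, Hbb-bs went from 453 to 2276 counts, Alas2 from 192 to 708 and Ptprc from 116 to 132. With DEHP in FVB/N, sums were lower for liver, seminal vesicle, adipose tissue and endothelium, and prostate and coagulating gland. They were also lower for Sertoli and Leydig cells and for smooth muscle and connective tissue (27098 and 20577). Sums for intestinal epithelium (489 and 544) and male germ cells (6862 and 8143) were higher. The part of these tissues in the Rbp2 values was not tested.

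**Figure D2:**
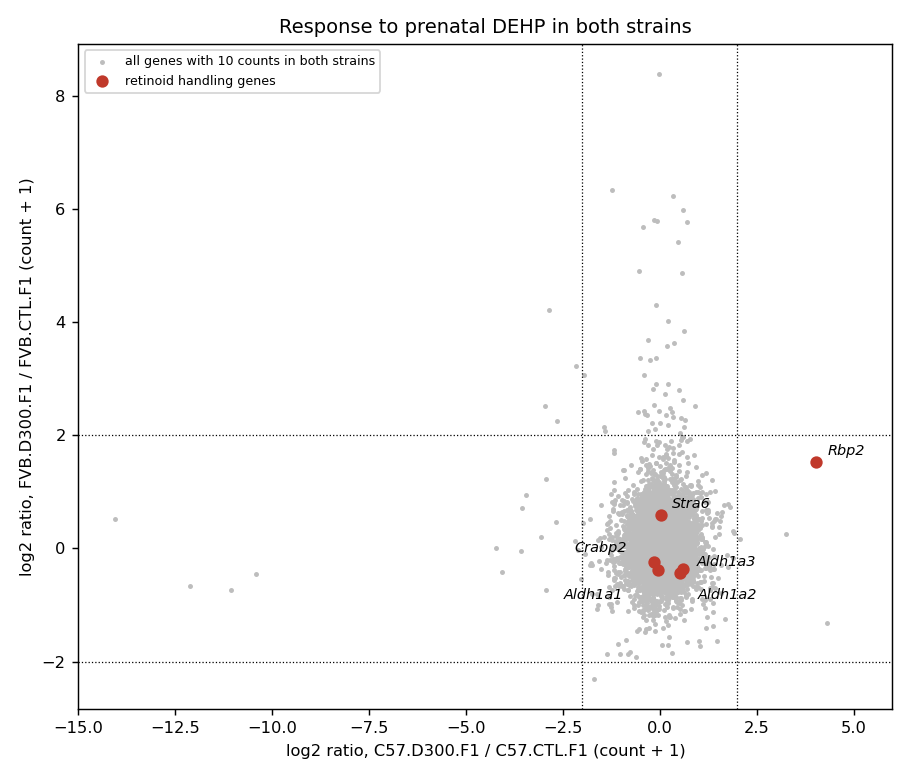
Log2 ratio of count plus 1 with DEHP in C57BL/6J (x axis) against that in FVB/N (y axis), for 15720 genes with at least 10 counts in both strains (grey) and 6 retinoid handling genes (red); dotted lines mark 2 log2 units. Rbp2 lies at 4.04 and 1.52, and the other 5 lie between -0.44 and 0.59 on both axes.

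The vehicle level of Rbp2 was higher in FVB/N, and its ratio with DEHP was smaller there than in C57BL/6J, by -2.52 log2 units for FVB/N minus C57BL/6J. On this measure 12 of 17556 genes had a lower value. The shares of all genes past 2 log2 units were 0.997% in the positive and 0.228% in the negative direction, and 1 of 7 retinoid handling genes, Rbp2, was past it. This difference contains the ratio that chose the gene. At 1 log2 unit, 7.38% of genes were past the threshold, and so were Rbp2 and Dhrs9 among the 7. The end points were closer than the ratios, since C57.D300.F1 and FVB.D300.F1 differed by 372 counts with a model SD of 2724.

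Between the strains without DEHP, Rbp2 was 6.60-fold higher in FVB/N than in C57BL/6J, a log2 ratio of 2.71. The difference of 862 counts was well above its model SD of 352, and 103 of 17086 genes had a higher ratio. The shares of all genes past 2 log2 units were 1.44% higher and 8.88% lower, and 26.3% were past 1 log2 unit. Of the 7 retinoid handling genes tested, Rbp2 was higher at 2 log2 units and none was lower. Dhrs9 lay just short of the threshold at -1.97, 4.25-fold lower in FVB/N. Its difference of 27.4 counts exceeded its model SD of 14.4. Both ratios share C57.CTL.F1 with the comparison that chose Rbp2, and they compare libraries of different sets.

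In the second generation, Rbp2 was 242 counts against 154 in C57.CTL.F1, a log2 ratio of 0.65, and the difference of 88.4 counts exceeded its model SD of 69.5. Against its own lineage in the first generation it was 10.5-fold lower, with a log2 ratio of -3.38 and a difference of 2297 counts (model SD 2192). For the comparison with vehicle, 0.584% of 17114 genes were higher and 3.61% lower by 2 log2 units, and 14.3% were past 1 log2 unit. For the comparison with the first DEHP generation, 0.333% of 17133 genes were higher, 3.30% lower and 11.0% past 1 log2 unit. In the former, 1 of 7 retinoid handling genes was lower, Dhrs9, and in the latter 1 of 7, Rbp2, which was high in C57.D300.F1 by choice. The order of the Rbp2 levels was thus C57BL/6J with vehicle, second generation, FVB/N with vehicle, C57BL/6J with DEHP and FVB/N with DEHP. Both lower steps in this order exceeded their model SD, whereas the step of 1524 counts from FVB.CTL.F1 to C57.D300.F1 did not (model SD 2219), nor did the last.

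**Figure D3:**
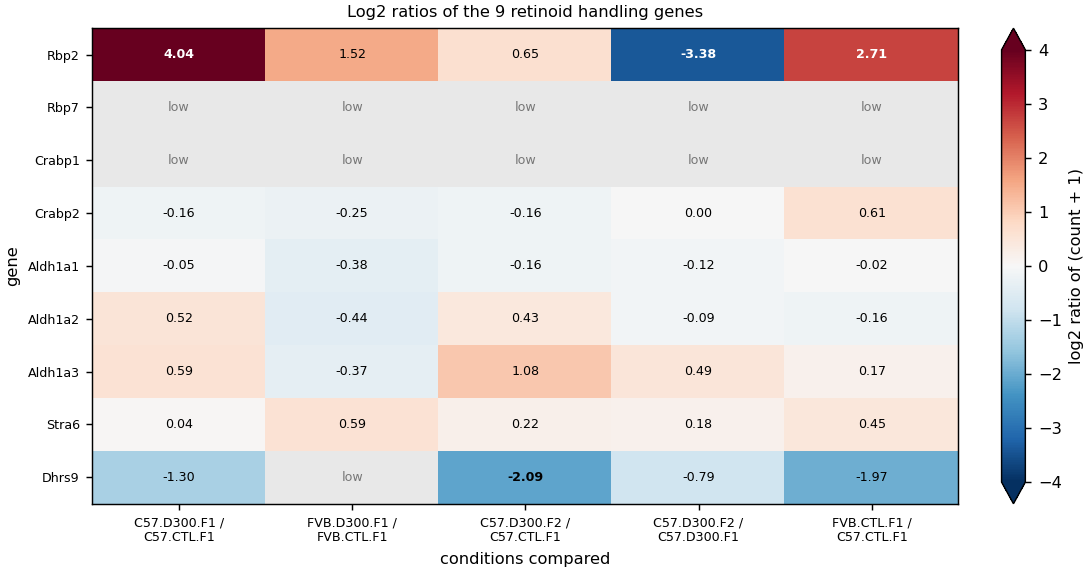
Log2 ratio of count plus 1 for the 9 genes (rows) in 5 comparisons (columns); bold marks values of at least 2 log2 units and grey cells marked low had under 10 counts in both conditions. Rbp2 has 3 of the 4 bold values, and the remaining one is Dhrs9 at -2.09.

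Rbp7 encodes a cellular retinol-binding protein of adipose tissue and endothelium, and it was at or near the limit of detection of 3 counts everywhere. It had 1.46, 0.854, 1.02, 3.41 and 1.37 counts. Its nearest relative in the set, Rbp2, was the 1 abundant cellular retinol-binding protein among the 9 genes. The summed count of 8 markers of adipose tissue and endothelium was 935 to 2076 in the same conditions. Rbp7 lies at chr4:149449687-149454978 on the minus strand.

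Crabp1 and Crabp2 bind retinoic acid in the cytosol, and Crabp2 hands it to retinoic acid receptors in the nucleus. Crabp1 was at 1.63, 0, 0.543, 0.317 and 0 counts in these conditions, all under 3 counts. Crabp2 had 141, 126, 126, 215 and 181 counts, so both FVB/N values were higher than the 3 C57BL/6J values. Between the strains without DEHP, the Crabp2 difference of 74.8 counts, a log2 ratio of 0.61, exceeded its model SD of 65.0. Its ratios with DEHP were -0.16 in C57BL/6J and -0.25 in FVB/N, and neither difference exceeded its model SD. Crabp2 lies at chr3:87948666-87953376 on the plus strand and Crabp1 at chr9:54764748-54773110 on the plus strand.

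The 3 ALDH1A genes encode the retinaldehyde dehydrogenases that make retinoic acid. Aldh1a1 had the highest raw count of the set, with 5735, 5545, 5119, 5648 and 4332 counts. Its log2 ratios in the 5 comparisons lay between -0.38 and -0.02, and no difference exceeded its model SD. It exceeded 99.2% to 99.4% of genes by count, and its level was the steadiest of the 7 genes above 10 counts. Aldh1a1 lies at chr19:20492715-20643465 on the plus strand and is overlapped by 2 antisense genes, which stranded mapping keeps apart where the counting used strand.

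Aldh1a2 had 110, 159, 149, 98.4 and 72.2 counts, and Aldh1a3 had 111, 168, 236, 126 and 97.0 counts. Both were higher in C57BL/6J with DEHP than with vehicle and lower in FVB/N with DEHP than with vehicle. For Aldh1a2 the log2 ratios were 0.52 and -0.44, and neither difference (48.5 counts with a model SD of 49.5, and 26.2 with 33.5) exceeded its model SD. For Aldh1a3 they were 0.59 and -0.37. The Aldh1a3 difference in C57BL/6J, 56.6 counts, exceeded its model SD of 51.3, and that in FVB/N, 28.6 counts against 41.7, did not. The strain by exposure difference was -0.96 for each gene, under 1 log2 unit. In the second generation Aldh1a3 was highest, 2.12-fold above C57.CTL.F1 with a log2 ratio of 1.08 and a difference of 125 counts (model SD 63.3). Aldh1a2 lies at chr9:71215789-71296243 on the plus strand and Aldh1a3 at chr7:66390890-66427517 on the minus strand.

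Stra6 encodes the membrane receptor through which retinol enters cells from its plasma carrier. It had 16.2, 16.6, 18.9, 22.4 and 34.3 counts, with the highest value in FVB.D300.F1. Its log2 ratio with DEHP was 0.04 in C57BL/6J and 0.59 in FVB/N, and the latter difference of 11.9 counts lay within its model SD of 14.6. Stra6 lies at chr9:58063788-58153996 on the plus strand and overlaps Gm16131 on that strand, with which reads could be shared.

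Dhrs9 encodes a short-chain dehydrogenase that acts on retinol and steroids. It had 35.9 counts with vehicle and 13.9 with DEHP in first-generation C57BL/6J, 7.64 in the second generation, and 8.44 with vehicle and 8.81 with DEHP in FVB/N. C57.CTL.F1 thus stood above the other 4 conditions, which is opposite to Rbp2. With DEHP in C57BL/6J it was 2.58-fold lower, a log2 ratio of -1.30, and the difference of 22.0 counts exceeded its model SD of 15.2. Past 1 log2 unit, where 2.24% of all genes lay in either direction, the 7 genes tested had Rbp2 higher and Dhrs9 lower. It was 4.70-fold lower in the second generation than in C57.CTL.F1, a log2 ratio of -2.09, which fell below the threshold after scaling to equal totals or an equal upper quartile. In FVB/N both values were under 10 counts. Dhrs9 lies at chr2:69380445-69404533 on the plus strand.

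Divided by the summed exon length in GENCODE, levels could be compared between genes only roughly, because the annotation used for counting is not given. Aldh1a1 was first and Rbp2 second in both vehicle conditions (1162 against 160 counts per kb in C57BL/6J and 1144 against 1056 in FVB/N) and in the second generation (1037 against 252). The order of both was exchanged with DEHP, with 2640 counts per kb of Rbp2 against 1123 of Aldh1a1 in C57.D300.F1 and 3026 against 877 in FVB.D300.F1. In C57BL/6J this exchange restates the rise that chose Rbp2. It rests on exon lengths of 962 bases for Rbp2 and 4937 for Aldh1a1, whose raw count was higher in every condition. The model SD of Rbp2 was 2191 on 2540 counts in C57.D300.F1 and 1619 on 2911 in FVB.D300.F1. Crabp2, Aldh1a2 and Aldh1a3 came next, in this order, in every condition. Of the 45 differences between 2 conditions over the 9 genes, 11 exceeded their model SD, of which 6 were of genes other than Rbp2. The difference that chose Rbp2 is among the 11. The share over all genes was not computed, so nothing is read from this count.

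Of the 9 genes, 4 lie on chromosome 9, but far apart. The next 3 genes of the table after Rbp2 along the chromosome were 4930579K19Rik, Copb2, which encodes a coatomer subunit of vesicle coats, and Mrps22, which encodes a mitochondrial ribosomal protein. Their lower coordinates lie 76.1, 77.6 and 103 kb from that of Rbp2. Their log2 ratios with DEHP were -0.51, 0.01 and -0.43 in C57BL/6J and 0.17, -0.20 and 0.06 in FVB/N, so that none of the 3 rose with Rbp2 in either strain by 1 log2 unit.

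The profile of Rbp2 over the 5 conditions was compared with that of 11237 genes with at least 100 counts in 1 condition, by the root mean square distance of log2 values after centring each gene on its own mean. The median distance was 1.75, and that of Rbp2 from a flat profile was 1.73. The nearest genes were Gm20594 (1.08), the small nucleolar RNA genes Snora65 (1.15) and Snora44 (1.19), D430020J02Rik (1.19) and the microRNA gene Mir664 (1.21). Snora65 had 749, 1221, 845, 2571 and 5103 counts, and D430020J02Rik 112, 336, 296, 368 and 545. None of the other 8 retinoid handling genes was among these 5, and 5 points shared by all genes give no test of likeness. These points include the pair that chose Rbp2. In that pair the nearest genes had log2 ratios from 0.52 to 1.58, beside 4.04 for Rbp2.

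The other genes of retinoid handling were taken as a list of 45, all found in the table, of which 39 had at least 10 counts in 1 condition. With DEHP none of those tested passed 2 log2 units in either strain, 0 of 37 in C57BL/6J and 0 of 35 in FVB/N, with medians of -0.14 and 0.02 beside -0.01 and 0.00 over all genes. The 1 gene past 1 log2 unit in C57BL/6J was Ttr, which encodes transthyretin, the plasma partner of the retinol carrier, at -1.11. The 6 retinoic acid and retinoid X receptor genes passed 2 log2 units in no comparison, and their log2 ratios between conditions ranged from -1.31 to 0.47. Stra8, a retinoic acid response gene of germ cells, had at most 3.93 counts.

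In the comparisons across library sets, genes of the list were lower. In the second generation against vehicle, 11 of 37 (29.7%) were lower by 2 log2 units, against 3.61% of all genes, and the median was -0.86 beside -0.04. Against the first DEHP generation 10 of 36 (27.8%) were lower (median -0.57 beside -0.05), and in FVB/N against C57BL/6J without DEHP 10 of 39 (25.6%) were lower and 1 higher (median -0.63 beside -0.03). Rbp4, the plasma retinol carrier, had 2204, 3418, 153, 41.0 and 28.3 counts, and Ttr had 38822, 17995, 394, 101 and 65.0. Both were thus high in the re-analysed conditions and low in all 3 others. The same split was seen in Stra6l, a retinol transporter related to Stra6, with 312, 307, 18.6, 9.63 and 4.56 counts, in the retinol dehydrogenase gene Rdh7 with 1976, 2265, 47.3, 22.0 and 11.6, and in the retinal dehydrogenase gene Aldh8a1 with 576, 505, 24.1, 13.0 and 12.6. Bco2, Rdh16, Adh4 and Cyp26a1, the last of which degrades retinoic acid, were lower in all 3 of these comparisons too. Adh7, an alcohol dehydrogenase gene, was low in C57.D300.F2 alone, with 114, 101, 19.4, 129 and 154 counts. Fabp5 was lower in the second generation than with vehicle (187 to 42.9 counts), Rarres1 was lower and Rdh19 was higher in FVB/N than in C57BL/6J without DEHP. Rbp2, in contrast, was lowest in C57.CTL.F1.

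**Figure D4:**
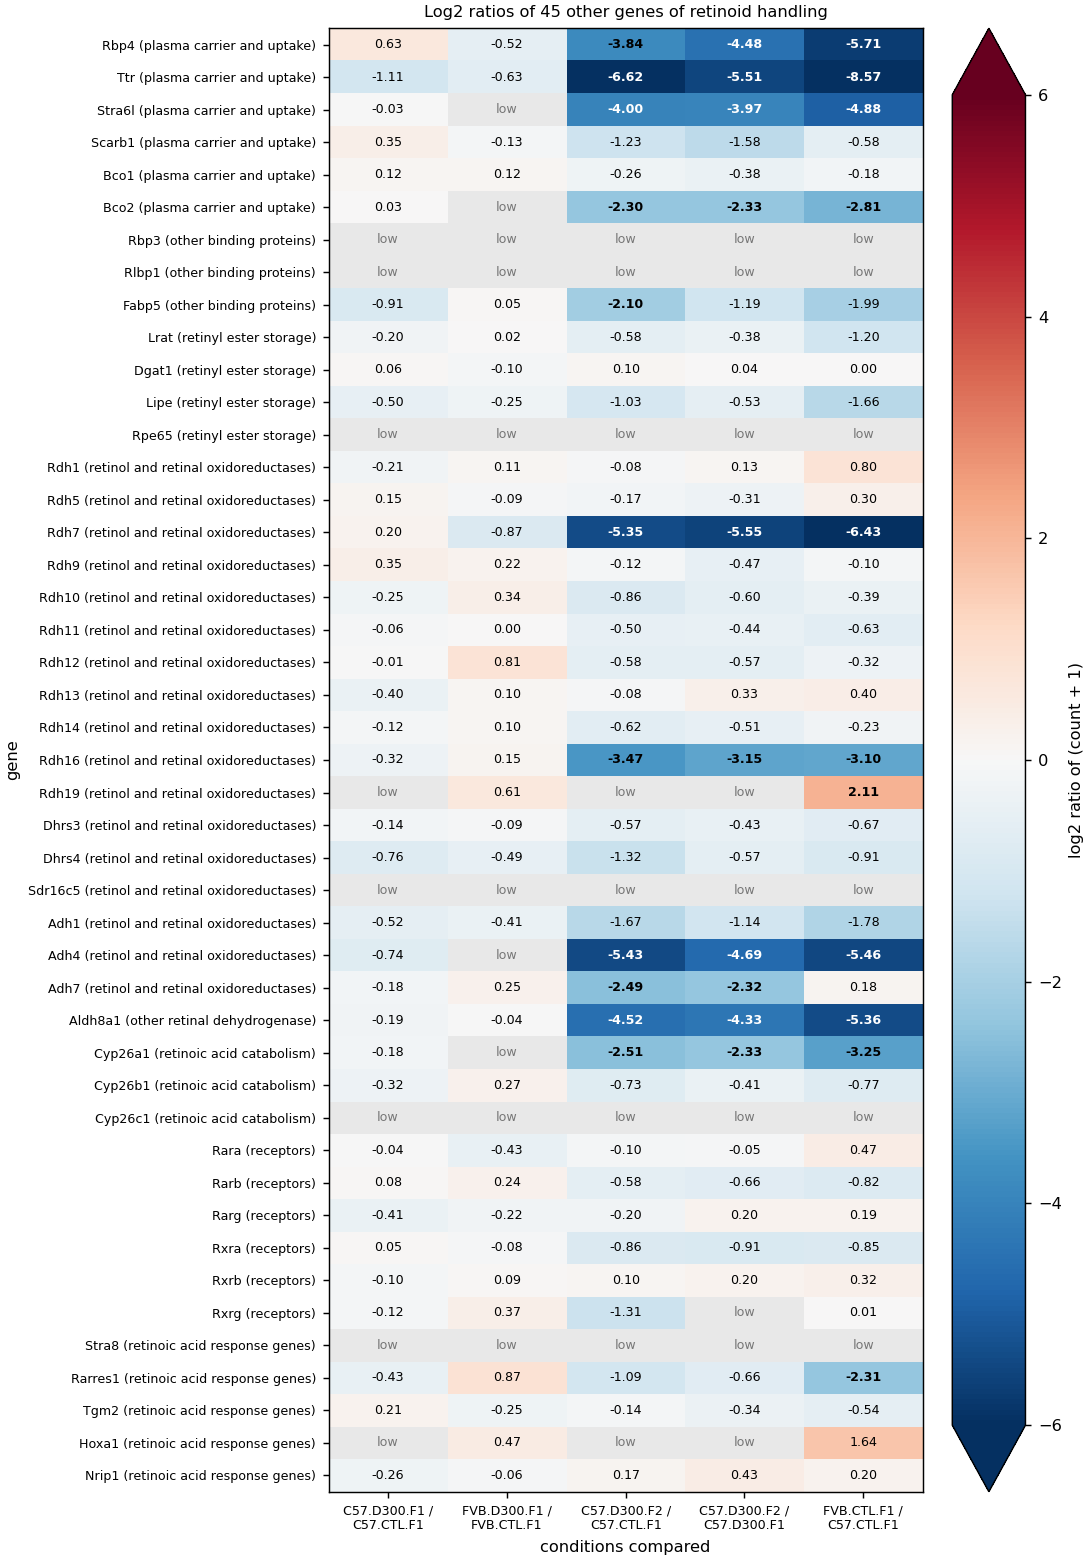
Log2 ratio of count plus 1 for 45 other retinoid handling genes (rows, with their role) in 5 comparisons (columns); bold marks values of at least 2 log2 units and grey cells marked low had under 10 counts. Both left columns, DEHP within a strain, hold no value past 2, and the 3 right columns hold 11, 10 and 11.

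Markers of other tissues were read beside these values. The summed count of 9 of 10 liver markers was 176938, 169548, 4636, 1038 and 818, the same direction across library sets as Rbp4 and Ttr, which the liver also makes, and its part in the list was not tested. For the intestinal epithelium, the tissue in which Rbp2 is best known, 8 of 8 markers summed to 1381, 1044, 460, 489 and 544 counts. Most of that sum in every condition was Mttp, with 956, 848, 313, 340 and 348 counts, and the single genes took different courses. Fabp2 had 181, 71.1, 7.70, 1.13 and 2.04 counts, Apoa4 had 183, 69.7, 6.20, 5.47 and 4.99, and both were highest in C57.CTL.F1. Alpi had 14.2, 10.4, 22.7, 63.7 and 99.2 counts, Vil1 had 9.93, 6.40, 13.9, 13.7 and 17.3, and Cdh17 had 20.6, 23.1, 82.2, 51.8 and 61.4. Alpi and Vil1 were thus highest in FVB/N with DEHP, as was Rbp2. In first-generation C57BL/6J both were lower with DEHP than with vehicle, opposite to Rbp2. Cdh17 was highest in the second generation. Lct had 15.6, 13.5, 12.4, 11.1 and 8.68 counts, lowest in FVB/N with DEHP. Sis stayed under 3 counts in all conditions. The part of intestinal RNA in the Rbp2 values was not tested. The 7 markers of the seminal vesicle summed to 226599 in C57.CTL.F1 and to between 75.6 and 515 elsewhere. Markers of male germ cells, the labelled source, were present in every condition but summed to 83801, 70309, 28117, 6862 and 8143 counts over 8 genes, an order that is not that of Rbp2.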

How the data were processed

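RNA of mouse sperm from 25 libraries was extracted with TRIZOL, depleted of ribosomal RNA, fragmented, treated at its ends and sequenced. Per the labels and the study's methods, base calling was done with CASAVA 1.8.2, and the authors removed the RA3 adapter, aligned to mm10 with TopHat in stranded mode and ran Cuffdiff. The annotation release and Cuffdiff options are not given in the sources used here. The first set of deposited columns holds a signal, that is the Cuffdiff estimate of the count of each gene in each condition, which combines 5 libraries, is scaled between libraries and is not divided by gene length. A second set of deposited columns, of unit other, holds the model variance of each count and was used for the model SD. Estimates that failed (71 genes in at least 1 condition) were treated as missing, and there were 0 columns of other samples.

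Log2 ratios were computed after adding 1 to each count, and a gene was compared with a threshold of 2 log2 units, and is called tested, if it had at least 10 counts in 1 of the conditions compared. With 1 pooled value per condition there was no test, no p-value and no SD between libraries. C57.CTL.F1 is shared by the comparisons of DEHP in C57BL/6J, of the second generation with vehicle and of the strains. The limit of detection was taken as 3 counts and, like every count, covers counting error only. Coordinates and exon lengths are those of GENCODE M21. The genes and lists were chosen with earlier results of these data known. All 9 genes, the genes of the list of 45 past the threshold, the 5 genes most like Rbp2, the next 3 genes after it on the chromosome and the markers by list were named. The result for 1 other gene is not reported here. Of the marker symbols, 2 were not matched. Markers of the prostate and coagulating gland summed to 35729 to 45274 counts, of Sertoli and Leydig cells to 279 to 467, and of smooth muscle and connective tissue to 20577 to 30605. Alternatives were 3 scalings, other pseudocounts, minimum counts and thresholds, a floor of 3 counts and a difference above the model SD. The calculation was tested on simulated data. Scripts ran under Python 3.11.15, with matplotlib 3.10.9, pandas 2.3.3 and numpy 2.4.6.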

Additional observations from a re-analysis of the deposited data

How the results depend on the processing

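No paired analysis was possible because the table holds 1 pooled value per condition and the columns carry no replicate number, and leaving out single libraries was not run for the same reason. Of the 10 settings, the scalings, the pseudocounts and the floor of 3 counts gave log2 ratios, and the others changed only which genes were counted. Of 324 ratios, 319 moved by less than their SD under the Cuffdiff model, the other 5 being of Crabp1, which had under 3 counts. That SD is wide beside the shifts the scalings can make, so this count says little about stability. The sign changed in 16 ratios, of which 15 were of genes with at least 10 counts, where the reported size was at most 0.16. The log2 ratio of Rbp2 ranged from 3.96 to 4.19 with DEHP in C57BL/6J, from 0.61 to 0.96 and from -3.39 to -3.20 for the second generation against vehicle and against the first DEHP generation, from 2.65 to 2.90 between strains and from -2.80 to -2.45 for strain by exposure. Of 109 counts of genes past a threshold, 97 stayed within 1.5 times. For the second generation against vehicle, the 1 gene of the 9 past 2 log2 units, Dhrs9, became 0 with equal totals, an equal upper quartile, a pseudocount of 10 or a minimum of 100 counts. A pseudocount of 0.1 gave 2 genes, Rbp2 and Dhrs9, between strains. A threshold of 1 log2 unit gave 2 of the 9 genes for DEHP in C57BL/6J, 1 in FVB/N, 2 for the second generation against vehicle (Aldh1a3 higher, Dhrs9 lower), 2 between strains and 2 for strain by exposure, and among the 45 other genes 1 with DEHP in C57BL/6J (Ttr) and 17 for the second generation against vehicle. Equal totals moved the median log2 ratio of all genes to 0.14 with DEHP in C57BL/6J, -0.12 in FVB/N, 0.27 and 0.11 in the second generation, 0.15 between strains and -0.25 for strain by exposure, and ratios near these sizes have no settled direction. The pooled counts limit precision most below 10 counts, where Rbp7 and Crabp1 lay.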

Other observations

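Genes higher by at least 1 log2 unit with DEHP in both strains were counted after the Rbp2 values were seen. Of 15720 genes tested in both strains, 130 were that much higher in C57BL/6J and 238 in FVB/N, and 6 were higher in both, which is 4.62% of the former and 2.52% of the latter. They were Rbp2, Clk2-scamp3, Emc8-1190005i06rik, Cypt1, Cts8-ps and Mir6236. Over all genes tested in each strain, 1.09% of 16825 were that much higher in C57BL/6J and 2.16% of 16471 in FVB/N. Rbp2 was high in C57BL/6J by choice, so nothing is read from this count. Rbp2 and Mir6236 were the 2 of the 6 genes with at least 100 counts in 1 condition, and the other 4 had at most 19.0 counts. Mir6236 had 3383, 6937, 8194, 16221 and 34245 counts in the order of conditions used above, so that, unlike Rbp2, it was higher in the second generation than in C57.D300.F1.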
